A study of Mus musculus with 6 samples.

Results

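The peaks of mouse chromosome 8 in methylated DNA immunoprecipitation sequencing (MeDIP-Seq) of primary mesangial cells are described here. All peaks called on that chromosome in the 6 samples were taken, which gave 42419 of the 579787 peaks of the series, and they were compared with the 525056 peaks of the other 18 autosomes. The chromosome was selected on the difference between the groups in its share of the called peaks, so differences between control and TGF-β1-treated cells are given as descriptions, and nothing is read from the one fit of that contrast that is printed. A chromosome with many peaks can also differ by more points in its share, so its density of peaks is described as well and its test is not printed.

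The study asked how transforming growth factor beta 1 (TGF-β1), a profibrotic cytokine, changes regulation in kidney mesangial cells. MeDIP-Seq was run on 3 control samples and on 3 samples that had received TGF-β1 at 10 ng/ml during 72 h. Both groups were mouse primary mesangial cells from one source laboratory, grown in 25.5 mM glucose with fetal bovine serum and used at low passage, so high glucose was common to all samples. No strain, sex or age was given in the sources used here, peak lists carry no marker with which the cell type could be checked, and the samples of a group were called biological replicates without a statement of whether they came from separate cultures or animals. The p-values measure the spread between these samples.

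Mesangial cells are the contractile, matrix-producing cells that hold the capillary loops of the glomerulus together, and they deposit excess matrix in fibrosis. In MeDIP an antibody against methylated cytosine pulls down sheared DNA, so a stretch of the genome is recovered in proportion to how many methylated CpG dinucleotides it carries. A peak therefore needs both CpG sites and methylation, and neither can be read separately from its height. Recovery also scales with the amount of each stretch in the DNA used. No input library entered the peak calls, so that amount was not tested, and the densities, pileups and backgrounds here are not corrected for it.

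Peaks had been called separately in each sample from 9407103 to 13291419 uniquely mapped reads. The 3 control samples held 9407103 to 11494356 reads and the 3 TGF-β1 samples 12634300 to 13291419, so sequencing depth and treatment cannot be told apart. Each peak came with its pileup, the number of extended fragments over its highest point, and its fold enrichment over a local background. The background was recovered here as the number of reads in the 10 kb around the peak. It was never below the genome-wide mean of the sample, a floor of 50.3 to 71.1 reads, and it included the reads of the peak itself.

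The sequences under 5 regions show what kind of DNA the strongest and the group-specific calls lay in. The first 3 are the regions of chromosome 8 called in all 6 samples with the highest mean fold enrichment, and the others are the regions with the highest pileup among those called in 1 group only. Each is 200 bases around the summit on the plus strand of build mm9 (NCBIM37), with each CpG in capitals.
highest fold enrichment, 373 kb downstream of Csmd1, chr8:15519823-15520022: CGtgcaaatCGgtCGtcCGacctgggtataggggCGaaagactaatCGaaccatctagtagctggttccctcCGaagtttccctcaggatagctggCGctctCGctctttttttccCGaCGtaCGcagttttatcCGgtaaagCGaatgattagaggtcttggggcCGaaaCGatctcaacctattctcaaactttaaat
rank 2, 329 kb downstream of Tll1, chr8:66164687-66164886: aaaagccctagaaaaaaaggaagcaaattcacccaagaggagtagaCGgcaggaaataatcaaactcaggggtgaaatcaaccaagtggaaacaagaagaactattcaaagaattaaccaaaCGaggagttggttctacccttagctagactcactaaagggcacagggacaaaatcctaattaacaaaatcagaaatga
rank 3, 76.3 kb downstream of Fgf20, chr8:41288079-41288278: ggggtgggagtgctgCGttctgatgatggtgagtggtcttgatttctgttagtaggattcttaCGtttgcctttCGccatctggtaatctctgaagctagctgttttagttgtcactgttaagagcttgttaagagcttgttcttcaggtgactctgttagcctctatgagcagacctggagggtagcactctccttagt
control only, 51.1 kb downstream of Nrp1, chr8:131080369-131080568: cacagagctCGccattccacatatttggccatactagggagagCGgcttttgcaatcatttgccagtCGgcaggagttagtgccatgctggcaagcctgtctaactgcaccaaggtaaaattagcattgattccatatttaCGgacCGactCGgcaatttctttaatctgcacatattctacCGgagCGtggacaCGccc
TGF-β1 only, Zfhx3 intron, chr8:111262187-111262386: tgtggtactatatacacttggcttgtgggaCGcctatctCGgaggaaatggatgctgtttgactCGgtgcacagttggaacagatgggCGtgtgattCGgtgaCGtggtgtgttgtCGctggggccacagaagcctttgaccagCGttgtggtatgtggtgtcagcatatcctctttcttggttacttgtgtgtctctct

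These stretches held 16, 2, 3, 9 and 8 CpG dinucleotides, in the order shown. The first sequence, cut into 5 pieces of 40 bases, had 4 pieces that recurred on the autosomes, with a median of 10 exact copies. The sequences of rank 2 and 3 also had 4 of 5 pieces that recurred, with medians of 5662 and 2247 copies per piece. All 5 pieces of the control-only sequence recurred, with a median of 90 copies, whereas each of the 5 pieces of the sequence in Zfhx3, which encodes a zinc finger homeobox transcription factor, was found once. Sequence outside the assembled autosomes was not searched, so these copy numbers can be too low. Fold enrichment at the 3 strongest regions was 24.2 ± 1.08, 24.0 ± 0.906 and 22.7 ± 0.668 (SD, n = 6). Their pileups were 96, 116 and 136 in control against 111, 132 and 121 after TGF-β1 at the strongest region, and 132, 123 and 131 against 131, 132 and 140 at that of rank 2. At rank 3 they were 103, 91 and 97 against 108, 102 and 116. The groups overlapped at each of the 3. Only uniquely mapped reads had been kept, and the part of the recurring pieces in these enrichments and pileups was not tested.

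Chromosome 8 was the most densely called autosome in every sample. Control samples had 50.6, 53.9 and 59.3 peaks per Mb of sequenced bases on chromosome 8, and TGF-β1 samples had 57.7, 57.1 and 61.3. The other autosomes together had 32.4, 36.01 and 40.03 peaks per Mb in control and 40.6, 40.1 and 42.2 after TGF-β1. The density on chromosome 8 was thus 1.42 to 1.56 times that of the others, above it in 6 of 6 samples and first among the 19 autosomes in each. In base composition and gene content it stood lower. It ranked 7 of 19 in GC content, 5 in CpG density and 9 in protein-coding genes per Mb, and per CpG it still had 1.33 to 1.46 times as many peaks as the other autosomes.

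The local background of its peaks was also the highest of the autosomes. The median background came to 95.0, 89 and 107 reads per 10 kb without TGF-β1 and to 113, 112 and 121 with it. On the other autosomes it was 73.0, 65.0 and 79.0 in control and 83.0, 83 and 92.0 after TGF-β1. The ratio lay between 1.30 and 1.37 in every sample and was the highest of the 19 autosomes in each (exact two-sided sign-flip test of the log2 ratios over samples, p = 0.03125, the smallest that 6 samples can give, adjusted p = 0.0417 over 8 tests). The 8 tests included that of density. Over the 26 full windows of chromosome 8 the background followed density (Spearman rho 0.838). The limit given for density therefore holds here too, and nothing is read from this p. Chromosomes 10, 17 and 15 came next, each at 1.14 times all autosomes but itself, before chromosome 5 at 1.11. Only 12.9% to 17.2% of the peaks of chromosome 8 lay at the floor, against 25.6% to 33.5% elsewhere. The median of background minus summit pileup was 66 to 92 reads per 10 kb on chromosome 8 and 46 to 68.5 on the others. Peaks at the floor entered with the floor value, and reads of a peak away from its summit were not taken off.

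**Figure D1:**
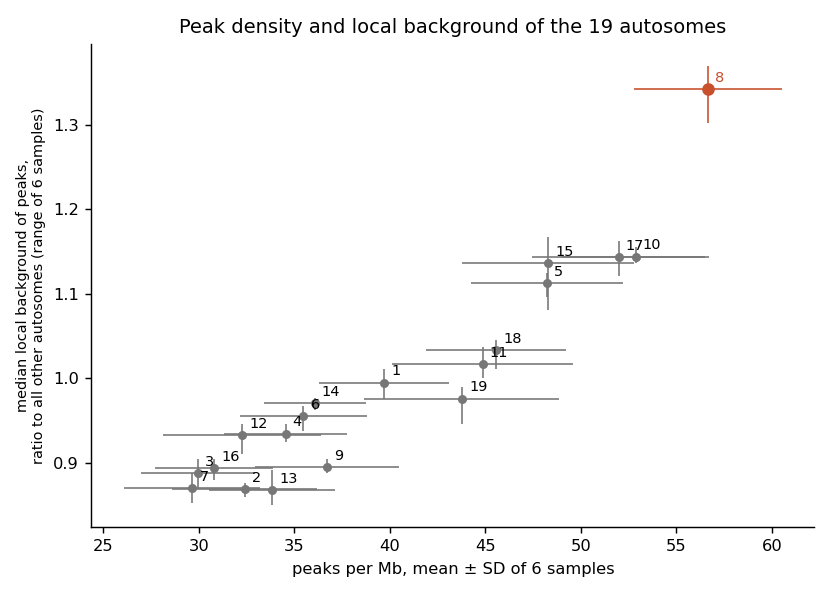
Each point is 1 of the 19 autosomes, numbered, with peaks per Mb on the x axis (mean ± SD of 6 samples) and the median local background of its peaks as a ratio to all other autosomes on the y axis (mean, with the range of the 6 samples). Chromosome 8 lies apart at the upper right, with 56.7 peaks per Mb and a background ratio of 1.34.

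The peaks themselves were taller, and their fold enrichment was lower in each sample. Median pileup was 22 to 27 fragments on chromosome 8 and 18 to 23 on the other autosomes. Median fold enrichment was 5.91 to 6.20 against 6.10 to 6.36, since the higher pileups stood on a higher background.

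Along the chromosome, cut into 27 windows of 5 Mb from the centromeric end, density ran from 11.0 to 118 peaks per Mb. The 5 windows from 105 to 130 Mb, a stretch set apart after the values were seen, held the top of the range. The densest was 125 to 130 Mb with 118 ± 6.95 peaks per Mb (SD, n = 6), followed by 120 to 125 Mb with 99.5 ± 8.76 and 110 to 115 Mb with 98.3 ± 5.74. These densities ranked 1, 3 and 4 among 466 autosomal windows with enough known sequence. The sparsest full windows were 100 to 105 Mb with 11.0 ± 1.03, 50 to 55 Mb with 13.9 ± 0.993 and 55 to 60 Mb with 26.7 ± 2.94 peaks per Mb. Of the 47 densest of these windows, 9 lay on chromosome 8, which supplied 25 of the 466. Over the 26 full windows density followed CpG density (Spearman rho 0.935) and GC content (0.895) more closely than the number of genes (0.701). These are descriptions over windows of 1 chromosome in the same 6 libraries.

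The background rose in the same distal stretch. It was 1.83, 1.80 and 1.78 times the median of the other autosomes in the windows starting at 115, 120 and 125 Mb, the 3 highest of all 466 windows, and 1.57 and 1.54 in those starting at 110 and 105 Mb, which ranked 5 and 7. The highest window on any other autosome reached 1.64. Set against windows of other autosomes whose CpG density was within 10%, the distal windows had more background than every one of 92, 55, 96, 12 and 18 such windows, in order from 105 Mb. In the last 1.74 Mb of the chromosome the ratio was back at 0.978. In steps of 1 Mb the distal stretch was uneven, with 2.57 from 117 to 118 Mb between 1.15 in the step before and 1.19 in the next. Outside it, the steps from 19 to 20 and from 20 to 21 Mb stood at 2.15 and 2.67, the latter on a mean of only 6.33 peaks.

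**Figure D2:**
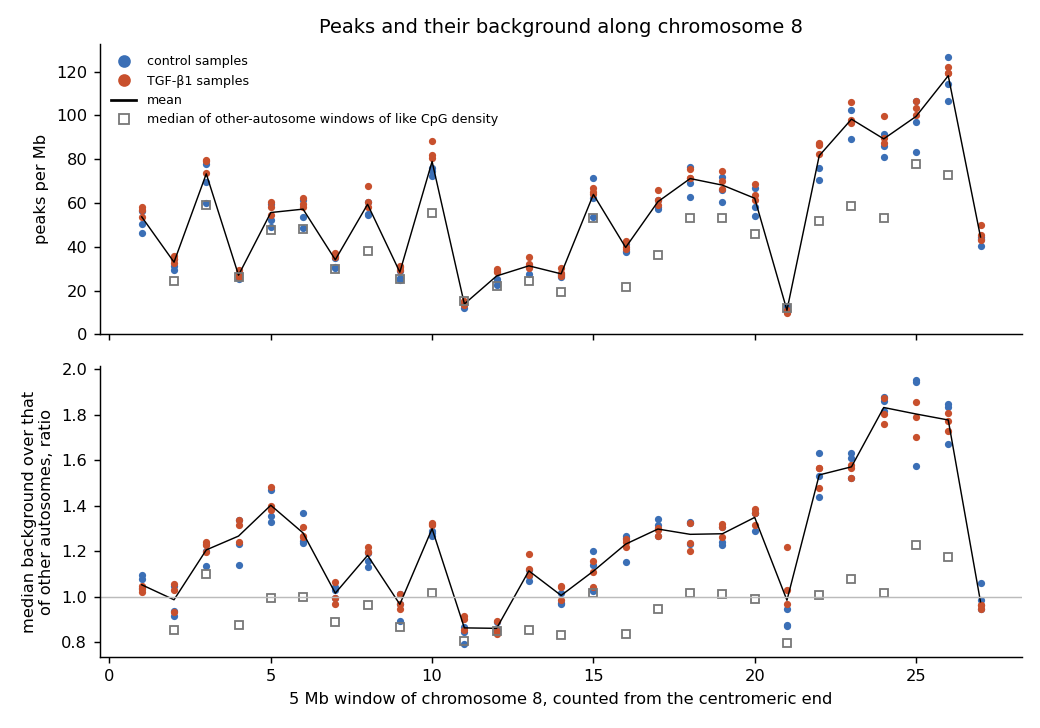
Peaks per Mb (top) and the median background of the peaks as a ratio to the other autosomes (bottom) in the 27 windows of 5 Mb, counted from the centromeric end, with 1 point per sample, the mean as a line and open squares for the median of other-autosome windows within 10% of the same CpG density. Windows 22 to 26 lie at 1.54 to 1.83 times the background of the other autosomes, and window 21, the sparsest, has 11.0 peaks per Mb.

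The higher background was not limited to the distal 25 Mb. That stretch made up 20.0% of the sequenced bases and held 34.1% to 34.8% of the peaks of chromosome 8 in the 6 samples. Without it the background was still 1.16 to 1.20 times that of the other autosomes and still the highest of the 19 in every sample, while the density ranked 4 to 7. All 25 ranked windows of chromosome 8 had a background above the median of the windows with like CpG density, among them all 20 outside the distal stretch, and 23 of 25 had more peaks. The ratio to the other autosomes was above 1 in 21 of 27 windows, and in 19 of these in all 6 samples.

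In the 3 densest windows the genes with the most regions called in all 6 samples were long ones. Peaks of the 6 samples that shared at least 1 base were joined into regions for this count, and a gene was credited with regions within it or 2 kb around it. Gm20388 came first in the 2 windows from 120 to 130 Mb with 941 regions, 262 of them called in all 6 samples. This model spans 4435 kb, is tagged as a readthrough transcript and lies over many other genes, so its count is that of a stretch of the chromosome. Pard3, which encodes a cell polarity scaffold, followed with 98 regions, 35 of them called in all 6 samples, and with 63 to 68 peaks in control and 56 to 70 after TGF-β1. Pcnxl2 had 13 such regions of 27, and Disc1, a scaffold protein of neurons, and Galnt2, a glycosyltransferase that starts mucin-type O-glycans, had 8 each of 33 and 28.

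In the window from 120 to 125 Mb Cdh13, which encodes the membrane-anchored T-cadherin, held 91 regions, 24 of them in all 6 samples. Plcg2, a signalling phospholipase, had 11 of 27, Banp, a nuclear matrix protein, 9 of 17 and Gse1 6 of 27. From 110 to 115 Mb Zfhx3 had 24 of 65 regions called in all samples, and Hydin, a protein of motile cilia, had 9 of 43. The ubiquitin ligases Znrf1 and Wwp2 had 7 of 18 and 6 of 25, and Vac14 had 6 of 14. Of the 71 protein-coding genes that touched the densest window 60 had at least 1 region called in all 6 samples. Over all genes of chromosome 8 this share was 61.0%, and over all autosomes 44.3%. The window was picked for its many peaks, so nothing is read from the count.

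The sparse windows held 4, 3 and 19 protein-coding genes, the last of them with 1.7 Mb of unknown bases. The window from 115 to 120 Mb, with 89.3 peaks per Mb, held 20. Cdh8, a neuronal cadherin of 392 kb, held 9 regions, 2 of them called in all 6 samples, in the window from 100 to 105 Mb. Beside it A330008L17Rik had 3 and Gm3662 had 2, with 1 in all samples in each, and Gm17316 had none. From 50 to 55 Mb all 4 regions of Neil3, a DNA glycosylase, and both regions of Aga, a lysosomal amidase, were called in every sample, and 4930555F03Rik had 3 of 12. From 55 to 60 Mb Wdr17 had 3 of 6, Vegfc, a growth factor of lymphatic vessels, had 2 of 10, and Glra3, Fbxo8 and Asb5 had 1 each. The share of regions called in all 6 samples, which was not tested, was 34.0%, 37.96% and 30.5% in the sparse windows, in order from the sparsest, and 31.9%, 25.2% and 31.6% in the 3 densest.

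By gene element, 41.3% ± 0.438 of the peak summits on chromosome 8 were intergenic and 43.4% ± 0.980 intronic (SD, n = 6), with 8.02% ± 1.35 in coding sequence, 2.75% ± 0.0755 within 2 kb upstream of a transcript, 2.79% ± 0.134 within 2 kb downstream and 1.74% ± 0.108 in UTRs. Against the other autosomes, the share of intron peaks differed by 2.99 percentage points and that of intergenic peaks by -2.62, in 6 of 6 samples (exact sign-flip test, p = 0.03125, adjusted p = 0.0417 each). The adjusted p of each element is over the same 8 tests, so the p-values of density and background entered it. The direction of the intron and intergenic differences rested on transcripts tagged as readthrough. Gm20388 is the only gene of chromosome 8 made up of nothing else. When transcripts tagged as readthrough were left out on all autosomes, a choice made after the model was seen, the share of intron peaks differed by -0.802 and that of intergenic peaks by 1.17 points, again in 6 of 6 samples (exact sign-flip test, p = 0.03125). Of all bases, known or not, 62.5% were then intergenic on chromosome 8 and 59.4% elsewhere, and 31.5% and 33.8% were intronic. With those transcripts kept, 60.7% and 59.4% were intergenic and 33.3% and 33.9% intronic. The part of these base shares in the peak shares was not tested.

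The smaller elements did not turn on these transcripts. The share of UTR peaks differed by 0.218 ± 0.113 points and that of downstream peaks by -0.312 ± 0.112 in 6 of 6 samples (exact sign-flip test, adjusted p = 0.0417 each). Both lost this when any overlap with the peak was counted in place of its summit (exact sign-flip test, p = 0.0625 for UTRs and 0.1875 for downstream peaks). Coding peaks differed by -0.260 points (adjusted p = 0.107) and upstream peaks by -0.0152 points (adjusted p = 0.594) in the same exact test. Downstream stretches made up 1.94% of the bases of chromosome 8 and 2.26% elsewhere, and UTRs 0.721% and 0.815%. For coding sequence these base shares were 1.27% and 1.39%, and for upstream stretches 2.03% and 2.28%. Their part in the peak shares was not tested. Per Mb of the element itself, chromosome 8 had more peaks than the other autosomes in every class. Without readthrough transcripts this ran from 1.45 times in intergenic sequence to 1.85 times in UTRs, with 1.51 times downstream.

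**Figure D3:**
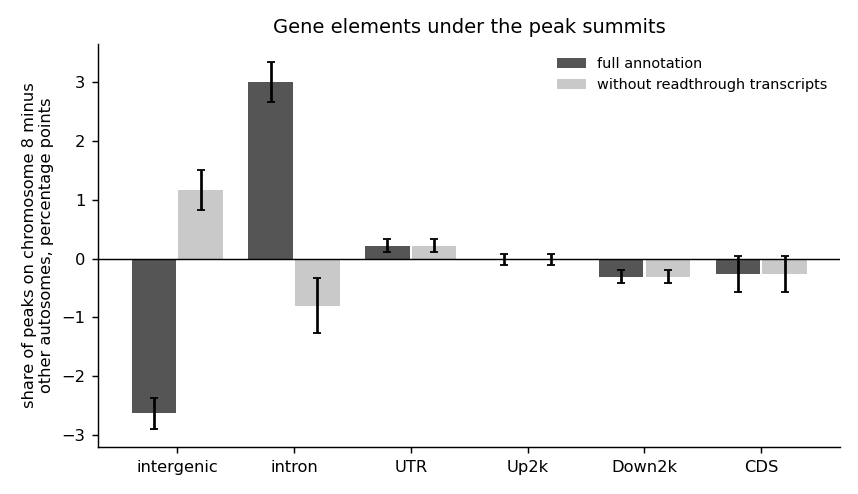
Bars give the share of peak summits in each gene element on chromosome 8 minus the share on the other autosomes, in percentage points (mean ± SD of 6 samples), with the full annotation (dark) and without transcripts tagged as readthrough (light). The intergenic bar moves from -2.62 to 1.17 and the intron bar from 2.99 to -0.802, and the other 4 hardly move.

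Joined over samples, the peaks of chromosome 8 formed 11798 regions. Of these 3470, or 29.4%, were called in all 6 samples, against 24.5% over all autosomes and 24.1% over those other than chromosome 8. Another 3006 regions, 25.5%, were called in 1 sample alone, against 27.4% elsewhere. The regions called in all 6 samples had a median of 9 CpG in the 300 bases around the summit on chromosome 8 and on the other autosomes alike, where the chromosome as a whole averages 2.71, and regions called once had a median of 6. With the same median number of CpG the shared regions had a higher median pileup on chromosome 8, 30.5 against 26.2.

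**Figure D4:**
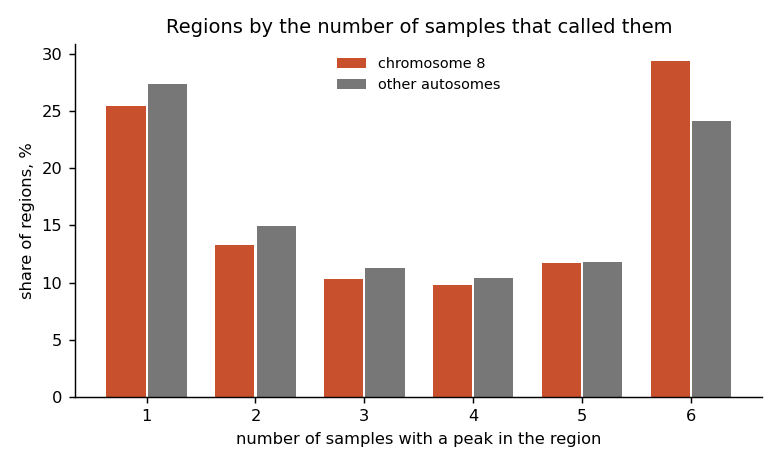
Bars give the percentage of regions by the number of samples, 1 to 6, in which a peak was called, for chromosome 8 and for the other autosomes. Chromosome 8 has 29.4% of its regions in all 6 samples and the other autosomes 24.1%.

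Counted by gene, 660 of the 1082 protein-coding genes of chromosome 8, or 61.0%, had at least 1 region called in all 6 samples, where the share over all autosomes was 44.3%. The gene lists below were drawn up with earlier results of these data known and are described by counts. Per Mb of gene, regions called in all 6 samples numbered 43.7 on chromosome 8, with Gm20388, and 23.3 on the other autosomes. The matrix list had 37.1, the signalling list 54.8, the cadherins 21.9 and the defensins 9.61. The transcription factors had 70.9 and the vascular and kidney list 48.4. The 2 kb flanks add regions but no length, so short genes score higher. In the matrix list 9 of 12 genes had a region called in all 6 samples, with 47 such regions in all. Palld, an actin-associated protein, had 12 in 389 kb. The type IV collagen chains Col4a1 and Col4a2, which form the core of basement membranes, and the protease Adamts18 had 8 each. Col4a1 carried 12, 12 and 11 peaks in control and 16, 12 and 16 after TGF-β1, and Col4a2 carried 12, 13 and 17 against 14, 15 and 15, so the groups touched or overlapped in both. Itgb1, the integrin chain common to most matrix receptors, had 1 region and none called in all samples.

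The signalling list had such regions in 12 of 16 genes, with 60 in all. The adaptor Gab1 had 12, Nrg1, a ligand of ErbB receptors, had 10, and Smad1, which carries signals of the bone morphogenetic protein branch of the TGF-β family, had 8. Smad1 held 13, 12 and 15 peaks in control and 13, 11 and 16 after TGF-β1, which overlap. Vegfc was the only listed signalling gene with a region called in all 3 samples of 1 group and in none of the other. That region, chr8:55221060-55221403 in the first intron of 6, had pileups of 16, 19 and 20 after TGF-β1 and no call in control. It was 1 of the 169 regions of the list, where 0.946% of regions over all autosomes were called only after TGF-β1. Counted by gene, 37 of the 1082 on chromosome 8 and 871 of 21418 over all autosomes had such a region. Depth differed between the groups, and nothing is read from this call.

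Of the 8 cadherin genes 7 had a region called in all samples. Cdh13 led with 24 in 1041 kb, and Cdh1, which encodes E-cadherin of epithelia, had 4 in 66.9 kb. Cdh16, a cadherin of kidney tubules, had no peak in any of the 6 samples. None of the 155 cadherin regions was called in all samples of 1 group and none of the other. Over all autosomes 0.233% of regions were called so in control and 0.946% after TGF-β1.

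Among transcription factors, 22 of the 24 listed symbols were found as protein-coding genes, and 15 of these had regions called in all 6 samples, 41 in all. Irf2, an interferon regulatory factor, led with 10 and Nfix, a factor of the nuclear factor I family, followed with 8. Hand2, a factor of heart and limb development, had a single region, chr8:59804927-59805446 in the 2 kb downstream. Its pileups were 14, 18 and 11 in control, where the lowest pileup of any peak was 8, and it had no call after TGF-β1. Cbfb, the partner subunit of Runx factors, had a region in intron 2 of 5, chr8:107696261-107696646, called only after TGF-β1 with pileups of 17, 22 and 25. Of the 114 regions of the list 1 was thus called only in control and 1 only after TGF-β1. The shares over all autosomes were 0.233% and 0.946%, and nothing is read from these calls. Junb, an AP-1 subunit, had no peak in any sample.

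The vascular and kidney list had shared regions in 8 of 10 genes and 22 in all. Egln1, an oxygen sensor of the hypoxia response, and Cacna1a, a neuronal calcium channel, had 6 each, and Ednra, the endothelin receptor of contractile vascular cells, had 5. Cacna1a also had a region called only after TGF-β1, chr8:87032097-87032430 in intron 3 of 46, with pileups of 18, 20 and 21. It was 1 of the 78 regions of the list, where the share over all autosomes was 0.946%, and nothing is read from it.

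The defensins, small antimicrobial peptides encoded in multicopy clusters, were nearly bare. Of 35 genes, 33 had no region at all. Defb35 had the single one that was called in all 6 samples, and Defa21 had a peak in 2 TGF-β1 samples. The cluster of 14 genes at chr8:18974940-19497775 had 4 to 7 peaks per sample, a mean of 10.2 per Mb, and the cluster of 21 genes at chr8:22165224-23059322 had 5 to 10, a mean of 9.08 per Mb. Their sequence holds 1.76 and 1.63 CpG per 300 bases, below the 2.71 of the whole chromosome. Reads that map to several copies had been left out by the authors, and the part of this and of the low CpG content in the low counts was not tested.

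Between the groups, chromosome 8 held 7.91%, 7.602% and 7.53% of the autosomal peaks in control and 7.24%, 7.26% and 7.41% after TGF-β1. Each TGF-β1 sample lay below each control sample, with a difference of -0.378 percentage points (7.68% ± 0.197 against 7.30% ± 0.0916, SD, n = 3), and this is the difference on which the chromosome was selected. The groups were also apart, in one direction or the other, on chromosomes 2, 3, 5, 12, 17 and 19. The number of its peaks went the other way, with 6317, 6722 and 7401 in control and 7201, 7122 and 7656 after TGF-β1, and the groups overlapped. TGF-β1 samples were sequenced more deeply, and their lists were longer on average, with 98146 to 103348 autosomal peaks against 79911 to 98222 in control, which overlap. When the same 79911 autosomal peaks with the best q-values were kept in each sample, the shares were 7.91%, 7.71% and 7.72% against 7.50%, 7.42% and 7.66%, a difference of -0.254 points with the groups still apart. At equal length chromosome 4 differed by -0.264 and chromosome 12 by 0.351 points, more than chromosome 8. The groups were then also apart on chromosomes 4, 5, 12, 15 and 19.

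**Figure D5:**
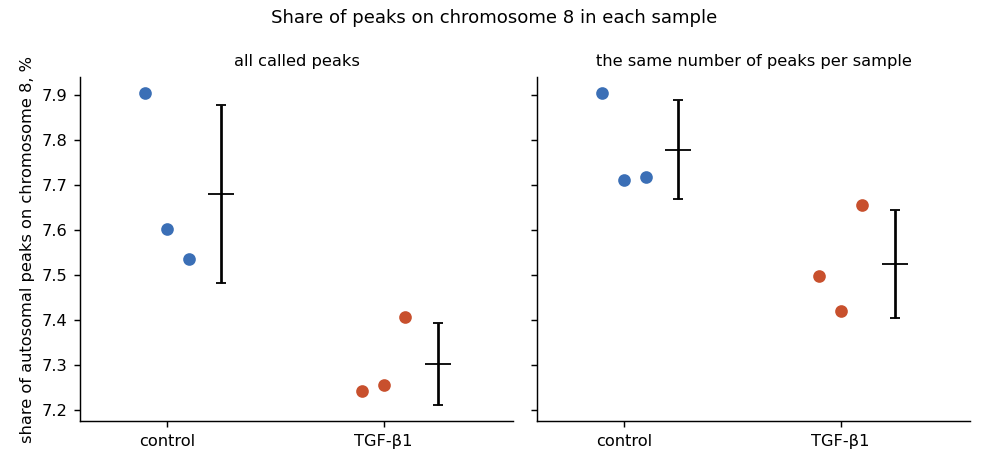
Share of autosomal peaks on chromosome 8, in percent, in each of the 3 control and 3 TGF-β1 samples, with mean ± SD beside the points, for all called peaks (left) and for 79911 peaks per sample (right). In both panels the control samples lie above the TGF-β1 samples, from 7.53% to 7.91% against 7.24% to 7.41% on the left.

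Without the 5 windows from 105 to 130 Mb the difference in share was -0.232 points, against -0.378 with them. The mean share of a window was lower after TGF-β1 in 25 of 27 windows. All TGF-β1 samples lay below all control samples in 10 windows, a pattern that 7.72% of all autosomal windows showed, and above them in 0, where 6.73% of all autosomal windows did. The contrast chose the chromosome, so nothing is read from these counts. The largest of these windows in points was the densest, at 125 to 130 Mb, with 0.653% of autosomal peaks in control and 0.600% after TGF-β1. The ratio of the background to the other autosomes was 1.34 ± 0.0357 in control and 1.34 ± 0.0240 after TGF-β1 (SD, n = 3).

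Few regions were called in 1 group alone. There were 22 regions with a peak in all 3 control samples and no TGF-β1 sample, 0.186% of those on chromosome 8, where the share over all autosomes was 0.233%. In the other direction there were 91, or 0.771%, where it was 0.946%. With 79911 peaks per sample the counts were 54, or 0.525%, for control only, where the share over all autosomes was 0.448%, and 46, or 0.447%, for TGF-β1 only, where it was 0.611%. The order of the counts on chromosome 8 thus turned with the length of the lists, and nothing is read from them. No pileup was given for a sample without a call, so how far such a region fell short of the threshold is not known. The regions called only in control had a median pileup of 17.8 and those called only after TGF-β1 of 19.7, both well under the 30.5 of the regions called in all 6 samples.

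The strongest control-only region was chr8:131080401-131080719, which lies 51.1 kb downstream of Nrp1, a coreceptor for vascular growth factors, and has the repeated sequence shown above. Its pileups were 32, 43 and 40. The next was chr8:127808572-127808958, 23.0 kb downstream of Disc1, with 28, 22 and 23. The region chr8:128544543-128544998 in the first intron of Kcnk1, a potassium channel, had 22, 22 and 25. Both of the others were intergenic, chr8:35652621-35652956 at 218 kb upstream of Dusp4, a MAP kinase phosphatase, with 25, 23 and 20, and chr8:111128280-111128623 at 110 kb upstream of Zfhx3 with 21, 24 and 22.

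After TGF-β1 alone, the strongest was chr8:111262103-111262458 in the first intron of Zfhx3, with pileups of 42, 43 and 60. In Mlf1ip, a centromere protein gene, chr8:47645156-47645484 in intron 4 of 12 had 40, 39 and 37. The third lay in coding exon 10 of 34 of Pcnxl2, at chr8:128386847-128387192, with 38, 35 and 26. In Pkd1l2, a polycystin family gene, chr8:119603752-119604050 in intron 3 of 42 had 32, 30 and 36, and in Gse1 chr8:123050091-123050480 in the first intron had 30, 26 and 32. Although their pileups were high, the fold enrichment of these 5 averaged 4.04 to 4.45, below the 5.39 that was the median of all 91.

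Regions with a peak in all 6 samples were also compared by their pileup with limma, on the log2 scale after each sample was centred on its median, over 41744 regions of all chromosomes. No region passed an adjusted p of 0.05, on chromosome 8 or elsewhere (smallest adjusted p = 0.999 and 0.677). With log2 fold enrichment in place of pileup 0 did on chromosome 8 and 1 did in all. At an unadjusted p below 0.05, 44 of 3470 regions on chromosome 8 were higher after TGF-β1, or 1.27%, where 1.96% were over all chromosomes, and 91, or 2.62%, were lower, where 2.22% were. Nothing is read from these counts, since the same contrast chose the chromosome. The median log2 difference over the chromosome was -0.0189 and over all regions -0.00471.

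The regions with the smallest p are given as values. At chr8:45241693-45242170, which lies 457 kb upstream of Adam34, pileups were 14, 14 and 15 in control and 31, 25 and 34 after TGF-β1, a centred log2 difference of 0.83 ± 0.21 (SE). At chr8:3805293-3805718, 36.6 kb downstream of Gm7381, they were 20, 27 and 33 against 48, 50 and 46 (0.65 ± 0.19). At chr8:85036241-85036623, 109 kb upstream of Il15, a cytokine gene, they were 16, 17 and 16 against 32, 31 and 29 (0.69 ± 0.21). The groups did not overlap at any of these 3, but they were picked for their small p, so nothing is read from this.

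In the other direction, the region chr8:13280643-13281088 in intron 2 of 6 of Dcun1d2, a regulator of cullin neddylation, had 50, 47 and 56 in control and 39, 33 and 43 after TGF-β1 (-0.64 ± 0.17). The region chr8:111242503-111243180 had 33, 30 and 32 against 20, 16 and 30 (-0.80 ± 0.22), with 1 TGF-β1 sample reaching the lowest control value. It lies in the same first intron of Zfhx3 as the region called only after TGF-β1. At chr8:77861483-77861842, 67.6 kb downstream of Gm10358, they were 29, 25 and 31 against 19, 19 and 22 (-0.72 ± 0.21).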

How the data were processed

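MeDIP-Seq peak lists of 3 control and 3 TGF-β1-treated samples were used, grouped by their labels. The authors aligned the reads to mouse build mm9 with BWA, kept uniquely mapped reads, counted reads with the same start once, and called peaks in each sample with MACS2 2.1.0.20150731 at a q-value of 0.01 without an input library, per the file headers. The deposited files give the pileup signal at the summit, the fold enrichment ratio over the local background, and −log10 q values. Background reads per 10 kb were computed as (pileup + 1)/fold − 1, rescaled from the fragment length to the window, and were whole numbers within 0.02 for nearly all peaks above the floor. Gene elements came from GENCODE vM1 and bases from NCBIM37, the same build. Older symbols were matched through RefSeq names (GRCm38.p6). Chromosome 8 was compared with the other autosomes by exact sign-flip tests over the 6 samples. Regions were fitted with limma 3.58.1 (R 4.3.3), tested on simulated data. Values given with ± carry the SD between samples or the SE of the fit. Counts of joined regions and of genes are single totals over the 6 samples and carry no such error. Depth differed between groups. Genes and regions were named by rules (most shared regions per window, highest pileup or fold, smallest p) and, like the gene lists, were chosen with earlier results of these data known.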

Additional observations from a re-analysis of the deposited data

How the results depend on the processing

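Of 149 alternatives over 15 results 115 were counted as the same. That count includes changes of sign in the very small difference of the background ratio between the groups. It also includes the smaller difference in share without the distal windows. The alternatives that leave out the windows from 105 to 130 Mb or the readthrough transcripts were added after seeing the data. The density and background ratios of chromosome 8 kept their direction in all of theirs, from 1.21 and 1.18 without the distal windows to 1.51 and 1.35. Without readthrough transcripts the intergenic difference became 1.17 and the intron difference -0.802 points. With any overlap the UTR difference was 0.112, the downstream one -0.120 and the upstream one 0.0469, which was 0.0145 at a −log10 q of at least 5 and -0.0448 to 0.0173 with 1 sample left out. With 5 samples an exact sign-flip test cannot go below p = 0.0625. The difference in share was -0.451 to -0.266 points with 1 sample left out and -0.232 without the distal windows, over 1.5 times smaller. The background ratio between the groups differed by 0.000342, and by -0.0198 to 0.0141 with 1 left out. Regions called only in control numbered 54 with equal lists, 259 when 2 of 3 samples sufficed and 50 to 131 with 1 sample left out, and regions called only after TGF-β1 46, 442 and 165 to 244, each sample left out raising both, where fewer samples make the rule easier to meet. The densest window held 128 peaks per Mb with windows shifted by 2.5 Mb, 109 with 10 Mb windows and 105 with equal lists. Regions at an unadjusted limma p below 0.05 numbered 9 higher and 239 lower when scaled by reads per sample, 184 and 144 when a peak in 3 samples sufficed, and 32 to 88 and 60 to 140 with 1 sample left out, and 42 and 75 with the replicate block. Without control replicate 1 they were 84 and 140, without control replicate 3 88 were higher, and without TGF-β1 replicate 1 60 were lower. The cause was not tested. Samples of the 2 groups share only a number. The deviations of same-numbered samples correlated at -0.0464, 0.0432 and -0.130, 1 of 6 samples was closest to its own number, and with the replicate block the share differed by -0.378 points and the background ratio by 0.000342.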
